A study of Capra hircus with 6 samples.

Results

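Nuclear receptors are transcription factors whose activity is set by small lipophilic molecules, among them fatty acids, oxysterols, retinoic acid, thyroid hormone, vitamin D and steroids, or, in the orphan receptors, by no firmly assigned natural ligand. Many bind DNA as partners of a retinoid X receptor, and they switch genes on or off through coactivators and corepressors that modify chromatin. In fat tissue PPARG drives the formation of fat cells, the glucocorticoid receptor primes precursor cells for it, and the COUP-TF receptors are known as restraints on it in mouse cell models.

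The genes described here are 38 named nuclear receptors and coregulators, listed by symbol with earlier results of these data known. Of these, 37 had a row among the 16262 gene symbols of the deposited tables, and NR5A2 was not analysed here. The 37 comprised 30 receptors and 7 coregulators. Messenger RNA had been measured in goat (Capra hircus) adipose mesenchymal stem cells, the stromal precursors of fat cells, and all 6 libraries carry the label of adipogenic differentiation. The first group holds 3 libraries of cells overexpressing TAZ, a Hippo pathway coactivator encoded by WWTR1, and the second 3 control libraries of WT genotype. The labels give neither the vector, the promoter, the number of clones or donor animals, nor the length of differentiation. They also do not say that replicates were separate cultures, so the p-values measure a spread between libraries that may be technical.

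Library totals, recovered from the steps between low values, ran from 33871397 to 37705644 counted reads or fragments. WWTR1 stood at 84.6, 118.1 and 84.2 FPKM in the TAZ libraries, against 30.2, 29.9 and 35.9 FPKM in the controls (log2 fold change 1.54, limma adjusted p = 6.91e-07), and this row cannot separate introduced from native transcripts. All 9 stromal markers passed the filter on low values, but 5 of them changed, or 55.6%, where 37.9% of all tested genes did. PDGFRB and CD44 were 1.72 and 1.47 times as high in TAZ as in control libraries, while ENG, THY1 and VIM were at 0.619, 0.785 and 0.818 times the control level. PDGFRA did not pass the test, at 158 to 213 FPKM in the TAZ libraries and 147 to 204.5 FPKM in the controls. NT5E, COL1A1 and COL1A2 did not pass the test either. Of 8 mature adipocyte markers only CIDEC and LIPE passed the filter. LIPE was higher in the TAZ libraries (2.13 ± 0.111 FPKM, against 1.01 ± 0.115 FPKM in the controls), and LPL had at most 1 count in any library. The adipocyte list summed to 18.9 to 21.6 FPKM in the TAZ libraries and 18.3 to 20.7 FPKM in the controls. Most of this was CIDEC alone, at a mean of 17.84 FPKM in the TAZ libraries and 18.32 FPKM in the controls. The endothelial, epithelial and skeletal muscle lists each summed to under 1 FPKM in every library, with KDR at 0 in all. The 6 leukocyte markers summed to 27.0 to 28.0 FPKM in the TAZ libraries and 13.7 to 16.8 FPKM in the controls, nearly all of it CD14 and CD68, while PTPRC, the defining leukocyte gene, had no count in any library. CD14 rose to 2.53 times the control level (limma adjusted p = 6.8e-07) and CD68 fell to 0.632 times (adjusted p = 0.00185). The part of CD14, CD68, LIPE and the 5 stromal markers in the results below was not tested. In such bulk samples, fewer cells of a type and less RNA per cell cannot be told apart.

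FPKM is the number of fragments of a gene scaled to its length and to the library total, so levels can be set side by side between genes. Each mean is given with its SD over the 3 libraries of a group. Fold changes are log2 values on the log2(FPKM + 1) scale, TAZ overexpression over control, a scale on which changes of low genes appear too small. A ratio, where one is given, is of mean FPKM with nothing added. A gene was tested where it reached 1 FPKM in at least 3 of the 6 libraries, and it is said to rise or fall where limma's adjusted p over all 10750 tested genes was under 0.05.

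Of the 37 receptors and coregulators, 28 passed that filter and 9 did not. Among the 28, 5 rose, 5 fell and 18 did not pass the test, so 35.7% changed, where 37.9% of all tested genes did (15.7% higher and 22.1% lower). The share of changed genes was therefore near that of the whole transcriptome, and the values of individual genes carry the account. NR4A2, RORA, NR3C1, NCOA1 and NR1D1 rose, and NR2F1, THRB, NR2F6, NR1H3 and RARG fell. The median log2 fold change was -0.044 over the 28, beside -0.050 over all tested genes, and the median size regardless of sign was 0.21, beside 0.20. RORA passed the filter through the TAZ libraries alone, so its difference was partly a condition of being tested, and without it 4 of 27 rose and 5 fell. The FPKM scale gave 1693 higher and 2381 lower genes over the whole table, whereas scaling by median ratios gave 2001 higher and 1821 lower. The called members were the same 10 under that scaling, with NCOA2 and NCOA3 added to those that rose.

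**Figure D1:**
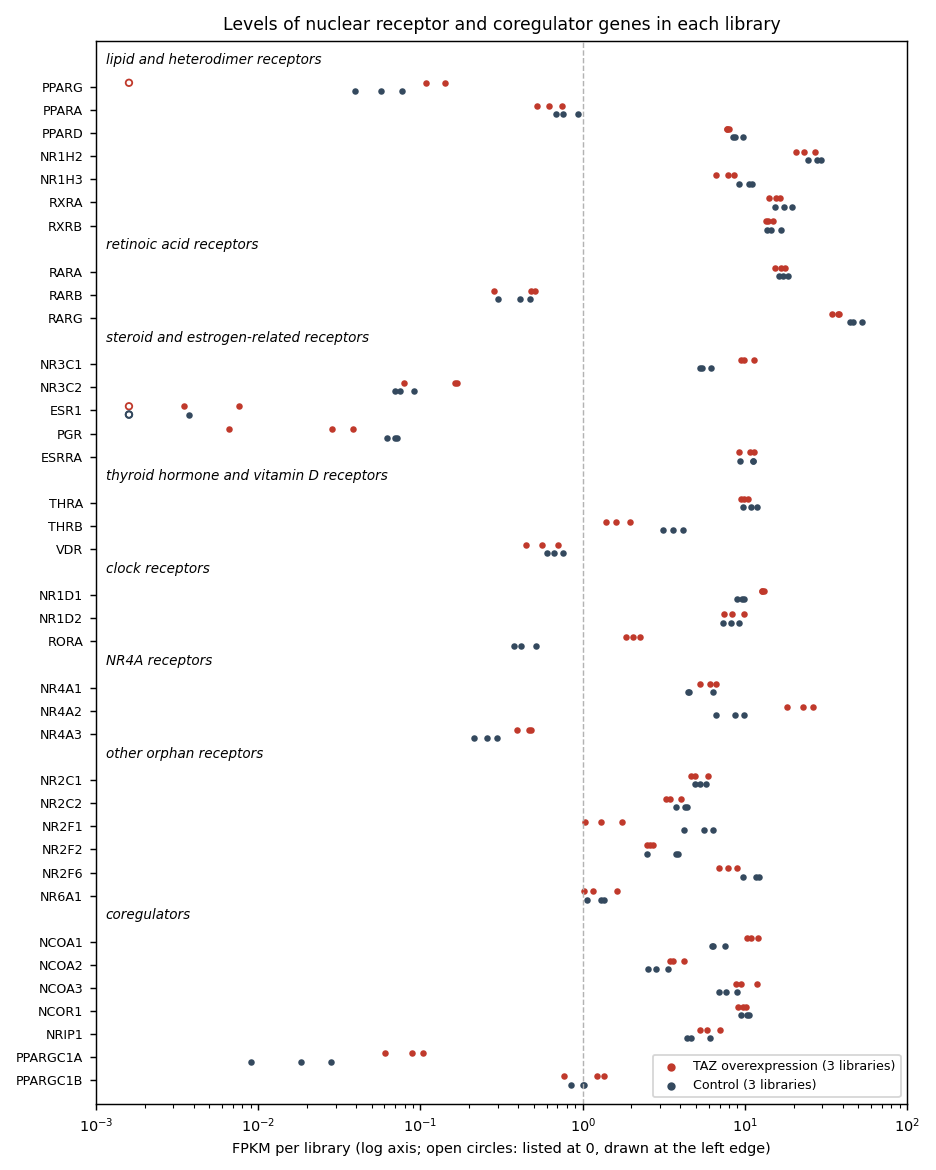
FPKM of the 37 receptors and coregulators in each library on a log axis, grouped by role, with TAZ overexpression in red drawn above control in dark blue for each gene a dashed line at 1 FPKM and open circles at the left edge for values listed at 0. RARG lies furthest to the right in both groups, at 34.2 to 37.9 FPKM in the TAZ libraries and 44.3 to 52.4 FPKM in the controls, while PPARG, ESR1, PGR and PPARGC1A lie below 0.2 FPKM throughout.

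The receptors that sense fatty acids and oxysterols, with their partners, were expressed unevenly. PPARG, the driver of fat cell formation, had 0, 8 and 6 counts in TAZ replicates 1, 2 and 3, against 3, 2 and 4 counts in the controls. In TAZ replicate 1 a count of 0 allows a level of up to 0.0588 FPKM, for counting error alone. PPARA, which turns on fatty acid oxidation in liver, was also below the filter at 0.629 ± 0.112 FPKM in the TAZ libraries and 0.793 ± 0.131 FPKM in the controls. PPARD, the widely expressed member of this subfamily, was by far the most abundant of the 3 PPAR genes, at 7.73, 7.73 and 8.01 FPKM in the TAZ libraries and 9.76, 8.73 and 8.40 FPKM in the controls. Its groups did not overlap, yet the difference did not pass the test (log2 fold change -0.17, 95% interval -0.37 to 0.029, adjusted p = 0.164). Groups that do not overlap were common in these data, at 48.4% of all tested genes.

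NR1H3, which encodes the oxysterol receptor LXR alpha, fell. It stood at 6.65, 8.58 and 7.87 FPKM in the TAZ libraries, against 11.04, 10.6 and 9.25 FPKM in the controls. Every TAZ library lay below every control library (log2 fold change -0.38, SE 0.11, limma adjusted p = 0.0153). The call was lost without control replicate 1 (adjusted p = 0.0579) and without TAZ replicate 1 (adjusted p = 0.0744). NR1H2, the gene of the ubiquitous LXR beta, was the second most abundant receptor at 23.6 ± 3.26 FPKM in the TAZ libraries and 27.3 ± 2.61 FPKM in the controls, and did not pass (adjusted p = 0.162). The obligate partners RXRA and RXRB did not pass either. RXRA stood at 15.4 ± 1.25 FPKM in the TAZ libraries and 17.4 ± 2.09 FPKM in the controls, with a 95% interval of the log2 fold change from -0.39 to 0.058. For RXRB the interval ran from -0.29 to 0.12, at 14.0 ± 0.728 FPKM in the TAZ libraries and 14.95 ± 1.498 FPKM in the controls.

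Genes known as targets of PPAR and LXR receptors were counted beside the receptors. Of 14 with a row, 11 were tested, 7 rose and 2 fell, with a median log2 fold change of 0.53 against -0.050 over all tested genes. The share that changed was 81.8%, beside 37.9% of all tested genes. The list was made knowing earlier results of these data, so its share and direction are a description. ABCA1, a cholesterol exporter and LXR target, stood at 35.7, 30.2 and 27.1 FPKM in the TAZ libraries, against 5.44, 7.72 and 8.28 FPKM in the controls (log2 fold change 1.98, adjusted p = 1.27e-07). LPCAT3, a phospholipid-remodelling enzyme and LXR target, stood at 85.2, 82.5 and 83.8 FPKM in the TAZ libraries, against 32.8, 42.0 and 35.7 FPKM in the controls (adjusted p = 6.17e-07). SCD and SREBF1, which are LXR targets and also answer to other lipogenic signals, were 4.38 and 2.23 times as high. APOE, another LXR target, did not pass at 121.6 ± 19.3 FPKM in the TAZ libraries and 134.3 ± 23.1 FPKM in the controls (limma adjusted p = 0.43). MYLIP rose (adjusted p = 0.0188), but its call was lost under 4 of 16 alternatives. ABCG1 was below the filter, with 13 counts in the TAZ libraries and 3 in the controls. The 2 that fell were CPT1A, the gate of fatty acids into mitochondria, and SLC25A20, the carnitine carrier, at 0.653 and 0.674 times the control level. ANGPTL4 and PLIN2, both PPAR targets, were 1.93 and 1.36 times as high, whereas PDK4, another PPAR target, had 6 counts in the TAZ libraries and 7 in the controls.

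RARG, a retinoic acid receptor gene, was the most abundant of all 37 genes and fell. It stood at 34.2, 37.7 and 37.9 FPKM in the TAZ libraries, against 52.4, 46.4 and 44.3 FPKM in the controls. The groups were clearly apart (log2 fold change -0.37, SE 0.090, limma adjusted p = 0.00582). RARA, the broadly expressed relative, stood at 16.6 ± 1.11 FPKM in the TAZ libraries and 17.2 ± 1.13 FPKM in the controls, with a 95% interval of the log2 fold change from -0.25 to 0.15. RARB, itself a classical retinoic acid target, was below the filter at 0.424 ± 0.123 FPKM in the TAZ libraries and 0.395 ± 0.0879 FPKM in the controls.

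Among the genes of retinoid handling and retinoic acid response, 12 had a row, 6 were tested, 1 rose and 3 fell. The share that changed was 66.7%, beside 37.9% of all tested genes, in a list made with earlier results known. RDH10, which oxidises retinol to retinaldehyde, was at 0.508 times and FABP5, a carrier of fatty acids and retinoic acid, at 0.560 times the control level. ALDH1A3, which makes retinoic acid from retinaldehyde, rose to 2.60 ± 0.257 FPKM in the TAZ libraries, against 1.11 ± 0.0595 FPKM in the controls (adjusted p = 4.03e-05). CRABP2, the carrier that delivers retinoic acid to its receptors, was abundant at 479 ± 33.2 FPKM in the TAZ libraries and 565 ± 59.2 FPKM in the controls, and its difference did not pass (adjusted p = 0.0678).

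NR3C1, which encodes the glucocorticoid receptor, rose to 1.82 times the control level. It stood at 11.3, 9.41 and 9.90 FPKM in the TAZ libraries, against 5.41, 5.32 and 6.16 FPKM in the controls. The lowest TAZ library was well above the highest control library (log2 fold change 0.76, SE 0.10, limma adjusted p = 7e-05). The receptor rested on 9478 counts in the TAZ libraries and 4988 in the controls. NR3C2, the mineralocorticoid receptor gene, was below the filter at 0.137 ± 0.0498 FPKM in the TAZ libraries and 0.0788 ± 0.0112 FPKM in the controls, so that NR3C1 was the more abundant corticosteroid receptor in both groups.

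Of 12 genes of glucocorticoid response and glucocorticoid metabolism with a row, 10 were tested, 5 rose and 1 fell. The share that changed was 60%, beside 37.9% of all tested genes, in a list made with earlier results known. PER1, among those that rose, passed the filter through the TAZ libraries alone. HSD11B1, the enzyme that regenerates active glucocorticoid inside cells, stood at 5.72, 4.27 and 5.56 FPKM in the TAZ libraries, against 2.38, 1.58 and 1.78 FPKM in the controls (log2 fold change 1.09, adjusted p = 2.11e-05). KLF9, a transcription factor induced by glucocorticoids and by thyroid hormone, was 2.42 times as high, and FKBP5, a receptor-bound immunophilin that glucocorticoids induce, 1.71 times as high. SGK1, a kinase of the corticosteroid response, fell to 5.69 ± 1.78 FPKM in the TAZ libraries, against 10.5 ± 1.21 FPKM in the controls (adjusted p = 0.00204). DUSP1, another induced gene, did not pass at 83.3 ± 15.2 FPKM in the TAZ libraries and 83.7 ± 12.6 FPKM in the controls. TSC22D3, also among those that rose, stood at 8.27, 6.24 and 8.455 FPKM in the TAZ libraries, against 5.94, 6.32 and 5.30 FPKM in the controls. Its groups overlapped (limma adjusted p = 0.0417), and its call was lost under 7 of 16 alternatives. The number that rose was 3 without TAZ replicate 1, without TAZ replicate 3 or with both of TAZ replicate 1 and control replicate 3 left out. Without control replicate 2, 2 fell, CRISPLD2 with SGK1.

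The sex steroid receptors were near 0. ESR1, the estrogen receptor alpha gene, had 2, 0 and 1 counts in the TAZ libraries and 0, 0 and 1 counts in the controls, which leaves a difference undetectable at this depth. PGR, the progesterone receptor gene, had 4, 6 and 1 counts in the TAZ libraries, against 9, 10 and 10 counts in the controls. The libraries of the groups did not overlap for PGR, and a fit with no filter gave an adjusted p of 0.0304, on few counts. That fit called 25.2% of all genes. ESRRA, an orphan regulator of mitochondrial genes, was expressed at 10.4 ± 1.12 FPKM in the TAZ libraries and 10.6 ± 1.12 FPKM in the controls, with a 95% interval of the log2 fold change from -0.26 to 0.21.

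THRB, a thyroid hormone receptor gene, fell to 0.453 times the control level. It stood at 1.95, 1.38 and 1.61 FPKM in the TAZ libraries, against 3.60, 3.14 and 4.18 FPKM in the controls. The groups were far apart relative to their spread (log2 fold change -0.81, SE 0.12, limma adjusted p = 0.000115). THRA, the more abundant thyroid hormone receptor gene, stood at 9.94 ± 0.453 FPKM in the TAZ libraries and 10.8 ± 1.05 FPKM in the controls and did not pass (adjusted p = 0.4). VDR, the vitamin D receptor gene, was below the filter at 0.572 ± 0.129 FPKM in the TAZ libraries and 0.677 ± 0.0772 FPKM in the controls. None of the 4 related genes with a row, namely DIO2, DIO3, THRSP and HR, passed the filter. The deiodinase genes DIO2 and DIO3, whose enzymes activate and inactivate thyroid hormone, had 1 count between them in all 6 libraries.

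Of the receptors that act in the circadian clock, both NR1D1 and RORA rose. These bind the same DNA element with opposite effects, NR1D1 (REV-ERB alpha) as a repressor and RORA as an activator. NR1D1 stood at 12.8, 12.8 and 13.1 FPKM in the TAZ libraries, against 9.54, 9.85 and 8.97 FPKM in the controls. Both groups were tight and apart (log2 fold change 0.41, SE 0.088, limma adjusted p = 0.00253). RORA stood at 2.25, 2.05 and 1.85 FPKM in the TAZ libraries, against 0.419, 0.380 and 0.513 FPKM in the controls. No control library reached 0.6 FPKM and every TAZ library was above 1.8 FPKM, a ratio of 4.69 between the means (log2 fold change 1.08, SE 0.097, adjusted p = 1.58e-06). RORA passed the filter through the TAZ libraries alone, so this difference was partly a condition of being tested. On the recovered counts, of which RORA had 501 in the TAZ libraries and 102 in the controls, the log2 fold change was 2.22. NR1D2, the relative of NR1D1, did not pass at 8.53 ± 1.22 FPKM in the TAZ libraries and 8.26 ± 0.945 FPKM in the controls (95% interval of the log2 fold change -0.21 to 0.29).

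Of 13 clock partners and targets of these receptors with a row, 12 were tested, 5 rose and 3 fell. The share that changed was 66.7%, beside 37.9% of all tested genes, in a list made with earlier results known. NFIL3, a repressor whose gene is itself a REV-ERB target, stood at 63.7, 51.2 and 64.0 FPKM in the TAZ libraries, against 23.4, 21.5 and 23.1 FPKM in the controls (log2 fold change 1.35, adjusted p = 2.23e-07). ARNTL, which encodes the clock activator BMAL1 and is a target of both receptors, fell to 4.87 ± 0.761 FPKM in the TAZ libraries, against 6.93 ± 0.725 FPKM in the controls (adjusted p = 0.00937). BHLHE40, a clock repressor, fell to 0.679 times the control level, and PER1, a clock repressor that glucocorticoids also induce, was 1.56 times as high and passed the filter only through the TAZ libraries. The number that rose was 1 without TAZ replicate 1 and 2 without TAZ replicate 3. Without any single control library, or without TAZ replicate 2, it was 3. With no filter it was 2 and under quantile normalization 3. At a mean of 5 FPKM or more (4 tested) it was 1, as it was with both of TAZ replicate 1 and control replicate 3 left out. CLOCK, NPAS2 and BHLHE41, also among those that rose, lost their calls under 5, 6 and 12 of 15 alternatives. PER3, which fell with ARNTL and BHLHE40 (limma adjusted p = 0.0491), lost its call under 9 of 15.

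The NR4A receptors are immediate early genes that act without a classical ligand. NR4A2 stood at 26.5, 18.2 and 22.8 FPKM in the TAZ libraries, against 8.66, 6.68 and 9.89 FPKM in the controls. Every TAZ library lay well above every control library (log2 fold change 1.32, SE 0.14, limma adjusted p = 1.08e-05). NR4A1 stood at 6.10, 5.32 and 6.63 FPKM in the TAZ libraries, against 6.38, 4.55 and 4.46 FPKM in the controls. Control replicate 1 lay among the TAZ libraries, and NR4A1 did not pass (log2 fold change 0.20, 95% interval -0.070 to 0.48, adjusted p = 0.226), but it passed without that library (adjusted p = 0.0393). NR4A3 was below the filter at 72, 97 and 92 counts in the TAZ libraries, against 40, 47 and 55 counts in the controls. Its groups did not overlap, and voom on all genes with at least 10 counts in 3 libraries gave a log2 fold change of 0.81 (SE 0.24, adjusted p = 0.0168). That fit, chosen after the values were seen, called 36.5% of its genes.

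**Figure D2:**
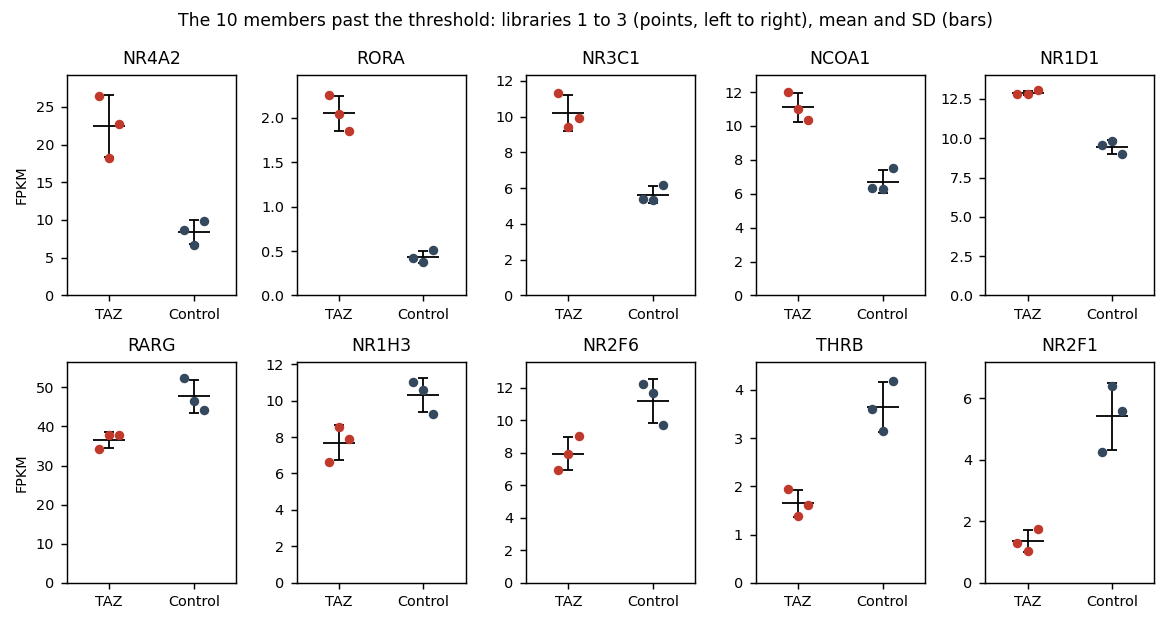
FPKM of the 10 called members in each library, with TAZ overexpression left of control, points for replicates 1 to 3 from left to right, and bars for the mean and SD. Each vertical axis starts at 0, and in all 10 panels the points of the groups do not overlap.

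The COUP-TF genes NR2F1 and NR2F2 encode orphan receptors of mesenchymal cells. NR2F1 had the largest fall of the 28, at 1.31, 1.04 and 1.75 FPKM in the TAZ libraries, against 4.24, 6.399 and 5.58 FPKM in the controls. The mean of the TAZ libraries was 0.253 times that of the controls (log2 fold change -1.43, SE 0.14, limma adjusted p = 3.96e-06), or a log2 fold change of -1.99 on the recovered counts. In RefSeq's ARS1.2 annotation another protein-coding gene overlaps NR2F1, and since no source used here gives the strand setting of the counting, reads of the pair cannot be told apart with certainty. The same limit holds for NR3C2, ESRRA, NCOR1 and NRIP1. Noncoding genes or pseudogenes overlap PPARA, RXRA, RARA, NR2C1, NR6A1, NCOA1, NCOA3 and PPARGC1B, and the limit may apply there too. NR2F2 stood at 2.70, 2.59 and 2.51 FPKM in the TAZ libraries, against 2.51, 3.87 and 3.78 FPKM in the controls. Control replicate 1 lay at the level of the TAZ libraries, and NR2F2 did not pass (log2 fold change -0.27, 95% interval -0.54 to 0.00056, adjusted p = 0.108), although it did without that library (adjusted p = 0.0101). NR2F6, a more distant relative that acts mostly as a repressor, fell at 6.95, 7.90 and 8.999 FPKM in the TAZ libraries, against 12.2, 11.7 and 9.68 FPKM in the controls. The closest libraries, TAZ replicate 3 and control replicate 3, were nearly level (log2 fold change -0.45, SE 0.11, adjusted p = 0.00782).

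The remaining orphan receptors did not pass. NR2C1 and NR2C2, the testicular receptors that can repress retinoid signalling, stood at 5.18 ± 0.649 and 3.58 ± 0.394 FPKM in the TAZ libraries and at 5.32 ± 0.394 and 4.13 ± 0.323 FPKM in the controls. Their log2 fold changes were -0.037 (95% interval -0.26 to 0.19) and -0.17 (95% interval -0.39 to 0.055). NR6A1, the germ cell nuclear factor gene, was low at 1.27 ± 0.323 FPKM in the TAZ libraries and 1.24 ± 0.155 FPKM in the controls.

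Of the coregulators, the coactivator gene NCOA1 rose. It stood at 12, 10.98 and 10.3 FPKM in the TAZ libraries, against 6.36, 6.29 and 7.51 FPKM in the controls. The groups were well apart, with a ratio of 1.65 between the means (log2 fold change 0.65, SE 0.10, limma adjusted p = 0.000233). NCOA2 and NCOA3, which encode the other coactivators of the same family, missed the threshold. NCOA2 stood at 4.24, 3.58 and 3.44 FPKM in the TAZ libraries, against 2.85, 2.52 and 3.36 FPKM in the controls, and NCOA3 at 11.8, 9.51 and 8.87 FPKM in the TAZ libraries, against 7.60, 6.96 and 9 FPKM in the controls. The values of NCOA2 did not overlap by a narrow margin, and those of NCOA3 did. Their log2 fold changes were 0.28 (95% interval 0.045 to 0.52, adjusted p = 0.0589) and 0.32 (95% interval 0.060 to 0.58, adjusted p = 0.0516). Both passed under median-ratio scaling (adjusted p = 0.0298 and 0.0255), with voom (adjusted p = 0.0324 and 0.0399) and without control replicate 3 (adjusted p = 0.0189 and 0.0121). NCOA3 alone also passed under quantile normalization (limma adjusted p = 0.0454) and with the replicate number as a block (adjusted p = 0.0492). It did so too without TAZ replicate 3 (adjusted p = 0.0347) and with both of TAZ replicate 1 and control replicate 3 left out (adjusted p = 0.0499).

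The corepressor genes did not pass. NCOR1, the scaffold of a histone deacetylase complex, stood at 9.63 ± 0.561 FPKM in the TAZ libraries and 10.1 ± 0.633 FPKM in the controls, with a 95% interval of the log2 fold change from -0.26 to 0.14. NRIP1, a corepressor that restrains energy use in fat cells of mice, stood at 6.05 ± 0.863 FPKM in the TAZ libraries and 5.06 ± 0.904 FPKM in the controls (adjusted p = 0.184), and passed without control replicate 3 (adjusted p = 0.0308). PPARGC1B, a coactivator of mitochondrial genes, was low at 1.12 ± 0.303 FPKM in the TAZ libraries and 0.957 ± 0.0931 FPKM in the controls. PPARGC1A, the inducible relative known for thermogenesis, had 13, 21 and 24 counts in the TAZ libraries, against 2, 6 and 4 counts in the controls. Its groups did not overlap, and it passed with no filter (adjusted p = 0.0132) and with voom on counts (log2 fold change 2.14, SE 0.50, adjusted p = 0.00393), at a level of only 0.0840 ± 0.0216 FPKM in the TAZ libraries and 0.0185 ± 0.00952 FPKM in the controls.

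**Figure D3:**
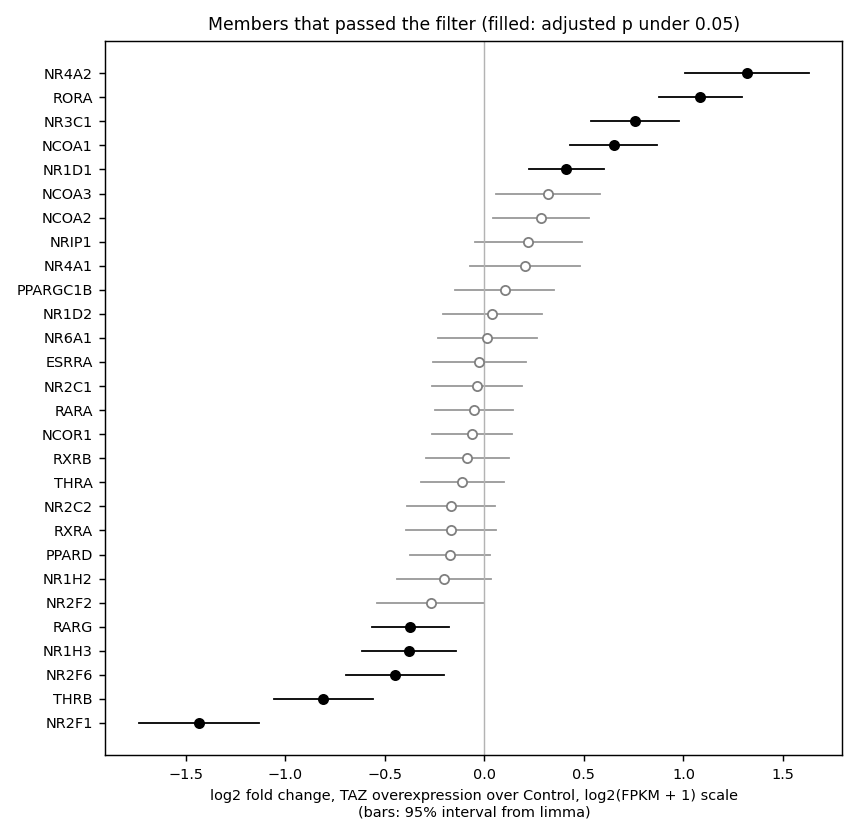
Log2 fold change of the 28 tested members, TAZ overexpression over control on the log2(FPKM + 1) scale, with 95% intervals from limma and filled points for adjusted p under 0.05. Filled points stand at both ends, from NR4A2 at 1.32 to NR2F1 at -1.43, and the 18 open points lie between NCOA3 at 0.32 and NR2F2 at -0.27.

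Further coregulators were counted for comparison. Of 27 with a row, 26 were tested, 5 rose and 7 fell, with a median log2 fold change of -0.082. The share that changed was 46%, beside 37.9% of all tested genes. NCOA7, among those that rose, passed the filter through the TAZ libraries alone. LPIN1, a phosphatidate phosphatase that also acts as a coactivator, rose to 2.44 times the control level, PNRC1 to 1.97 times and NCOA4, which also directs ferritin to lysosomes, to 1.38 times. CARM1, an arginine methyltransferase that works with the NCOA coactivators, fell to 31.6, 32.3 and 31.0 FPKM in the TAZ libraries, against 52.1, 50.7 and 49.7 FPKM in the controls (log2 fold change -0.67, adjusted p = 2.11e-05). Of these coregulators the number that rose was 3 without TAZ replicate 1, and 3 at a mean of 5 FPKM or more (19 tested). With both of TAZ replicate 1 and control replicate 3 left out, 3 rose and 4 fell. Those that fell numbered 5 to 7 when single libraries were left out. The chaperones that hold steroid receptors ready for ligand numbered 7, of which FKBP5 and HSPA8 rose. Thus 28.6% changed, where 37.9% of all tested genes did. FKBP4, another immunophilin, fell without control replicate 3 or without TAZ replicate 2, and the call of HSPA8 was lost with the replicate number as a block (adjusted p = 0.0509). HSP90AA1 and HSP90AB1, the core chaperone genes, did not pass at 345 ± 13.1 and 381 ± 28.7 FPKM in the TAZ libraries and 384 ± 25.8 and 406 ± 8.26 FPKM in the controls. Of 17 further nuclear receptor genes 11 had a row, and ESRRG alone passed the filter, at 2.46 ± 0.581 FPKM in the TAZ libraries and 2.28 ± 0.258 FPKM in the controls.

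**Figure D4:**
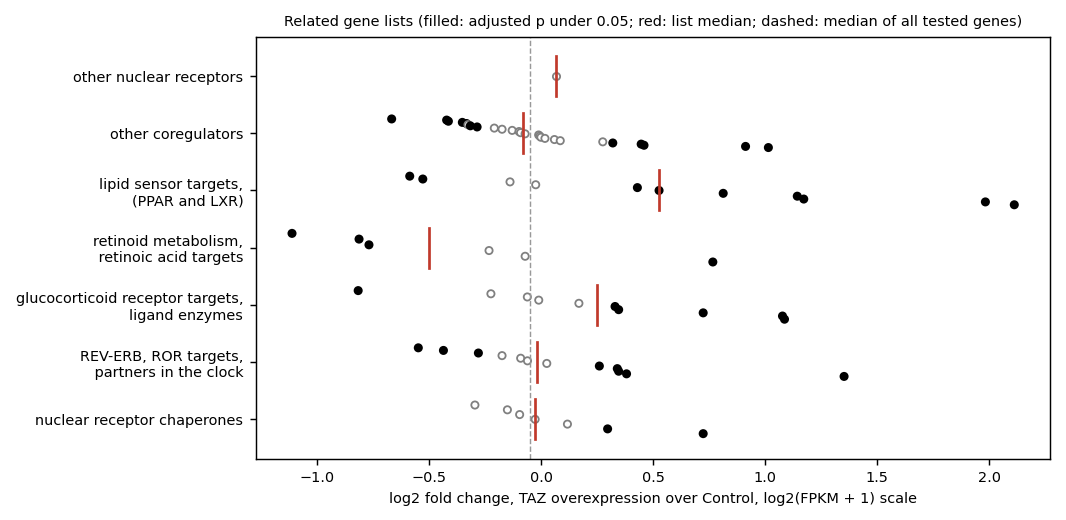
Log2 fold changes of tested genes in the related lists, TAZ overexpression over control on the log2(FPKM + 1) scale, 1 point per gene, filled where adjusted p was under 0.05, with the list median in red and the median of all tested genes dashed. The median of the PPAR and LXR target list lies furthest to the right at 0.53 and that of the retinoid list furthest to the left at -0.50.

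The ratio of 2 related genes within a library does not depend on a single scaling factor applied to that library. Quantile normalization can change it, and so can the length-linked deviations described below where the genes differ in length. Pairs were formed within families after the values were seen and are given without a test. NR4A2 was 4.34, 3.43 and 3.44 times as high as NR4A1 in the TAZ libraries, against 1.36, 1.47 and 2.22 times in the controls. NR2F1 was at 0.483, 0.402 and 0.698 times the level of NR2F2 in the TAZ libraries, against 1.69, 1.65 and 1.48 times in the controls. The order of the COUP-TF genes thus differed between the groups, with NR2F1 the lower of the pair in each TAZ library and the higher in each control library. THRB was at 0.165 ± 0.0211 times the level of THRA in the TAZ libraries and 0.337 ± 0.0425 times in the controls, and RARG at 2.21 ± 0.0589 times that of RARA in the TAZ libraries and 2.76 ± 0.0772 times in the controls. NCOA1 exceeded NCOA3 in every TAZ library, at 1.02 to 1.17 times, and lay below it in every control library, at 0.834 to 0.904 times. The ratios of NR1H3 to NR1H2 and of NR1D1 to NR1D2 overlapped between the groups.

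**Figure D5:**
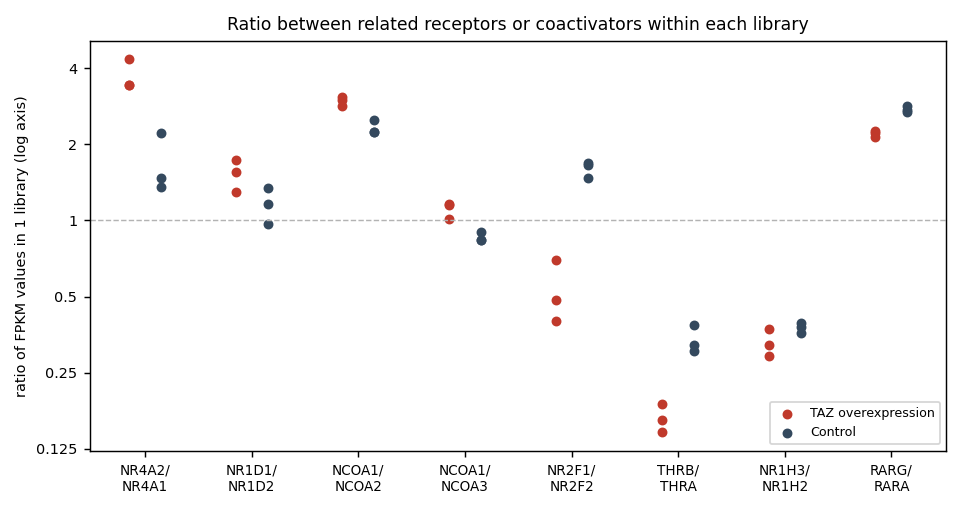
Ratio of FPKM values between related genes within each library on a log axis, with TAZ overexpression in red left of control in dark blue for each pair. The points of NR2F1 over NR2F2 lie below 1 in the TAZ libraries and above 1 in the controls, and those of NR1H3 over NR1H2 and NR1D1 over NR1D2 overlap.

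Within the groups the members varied with transcript length. Lengths recovered from the FPKM steps ran from 1713 to 10804 bases over the 28 tested members. For all 14 members longer than their median of 4480 bases, TAZ replicate 1 was the highest of the TAZ libraries, and for 10 of these 14 control replicate 3 was the highest of the controls. Across the 28 genes, which share these libraries, the deviation of TAZ replicate 1 from its group mean correlated with log2 length at r = 0.74 and that of control replicate 3 at r = 0.69, beside 0.43 and 0.40 over all tested genes. The log2 fold change itself correlated with log2 length at r = 0.12 over the 28 and 0.057 over all tested genes. Of the 14 longer members 9 had a positive log2 fold change, with a median of 0.071, and 3 rose and 1 fell. Of the 14 shorter members 3 had a positive one, with a median of -0.13, and 2 rose and 4 fell. With both of these libraries left out, 9 of the 10 called members could be tested and all 9 passed again in the same direction, while RORA fell below the filter.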

How the data were processed

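RNA sequencing of 6 libraries was examined. The authors deposited FPKM values, per the file headers, in 1 table per group. Reads had been handled with fastp, HISAT2 and HTSeq, per the submitters' processing notes, while no source used here gives versions, genome build, strand setting or the treatment of multi-mapping reads. Each table had 16285 rows, of which 23 with a date in place of a symbol were left out. All 16262 remaining symbols were found in RefSeq's ARS1.2 gene table, which was used for names and neighbours only.

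Low FPKM values step by 1 count, which gave library totals and, for 99.99% of rows with a value, a length at which all 6 values came out whole within 0.005. Recovered counts made up 99.47% to 99.52% of the totals. Floors (3 counts) cover counting error only. Paralogs and overlapping genes are uncertain.

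Libraries were grouped by title. Values were taken as log2(FPKM + 1) and fitted with limma 3.58.1 in R 4.3.3 (empirical Bayes with a mean-variance trend, two-sided, Benjamini-Hochberg over all 10750 genes at 1 FPKM or more in at least 3 libraries, threshold 0.05). The fit was run on simulated independent counts with few changed genes and no length-linked deviations. That setting is simpler than these data, so the run does not vouch for the calls. Every one of the 38 members is named, with up to 4 called genes of each related list by adjusted p and other genes of the target lists where they stand beside a receptor. One gene of these lists is not reported here. The members and lists were chosen with earlier results of these data known. Between libraries, chi-square per degree of freedom on counts ran from 18.3 to 28.6 for libraries of 1 group and from 194 to 239 across groups, so none were duplicates. Alternatives were other pseudocounts (0.1, 0.5), filters and scalings, no trend, the replicate number as a block, voom on recovered counts, and leaving out libraries. With 3 libraries in each group, no search for outlying ones was made.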

Additional observations from a re-analysis of the deposited data

How the results depend on the processing

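Of the 10 called members, 9 kept their direction and stayed past the threshold under every alternative in which they could be tested, and NR1H3 lost its call without control replicate 1 or TAZ replicate 1. RORA could not be tested without any 1 TAZ library, at a mean of 5 FPKM or more, or with both long-gene libraries left out. Of the 18 members that did not pass, 13 passed nowhere, and NR4A1, NR2F2, NCOA2, NCOA3 and NRIP1 passed under at least 1 alternative. The members that rose numbered 4 to 8 when single libraries were left out, with 8 without control replicate 3, and those that fell 4 to 5. At a mean of 5 FPKM or more, 20 members were tested and 3 fell, since THRB and NR2F1 were no longer tested. In the related lists 71 genes were tested as reported, of which 23 rose and 16 fell. Thus 32.4% rose and 22.5% fell, where 15.7% and 22.1% of all tested genes did, in lists made with earlier results known. Those that rose numbered 15 to 21 when single libraries were left out. Over all tested genes 1247 to 1874 rose in these runs, against 1693 as reported. In the related lists 15 rose at a mean of 5 FPKM or more (52 tested). With both long-gene libraries left out, an alternative chosen after seeing the data, 15 rose. Directions of members that never passed turned as follows, and the cause was not tested. ESRRA went to 0.0226 under median-ratio scaling and ran from -0.108 to 0.0541 without single libraries. NR2C1 went to 0.00779 under median-ratio scaling and ran from -0.12 to 0.0225. NR6A1 went to -0.0209 under quantile normalization and -0.0801 without both long-gene libraries, and ran from -0.0975 to 0.0955. NR1D2 ran from -0.0569 to 0.126 without single libraries. Same-numbered libraries did not deviate together (correlations -0.436, -0.112 and -0.403), so these values show no pairing by number. Libraries of different numbers did, TAZ replicate 1 with control replicate 3 at 0.691, TAZ replicate 2 with control replicate 1 at 0.534 and TAZ replicate 3 with control replicate 2 at 0.552. Deviations within a group cancel out, so negative correlations force positive ones elsewhere. Whether any libraries were paired was not tested. With the replicate block 1548 genes rose and 1964 fell, with 6 members that rose and 5 that fell. PPARG, ESR1 and PGR rest on too few counts for a fold change to be read.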

Other observations

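Of 27 genes in the related lists that were below the filter, 4 passed the threshold when no filter was set, a fit that called 25.2% of all genes. They are named here after their values were seen. PRDM16, a coregulator of brown fat cells in mice, stood at 0.370 ± 0.0321 FPKM in the TAZ libraries and 0.111 ± 0.0165 FPKM in the controls (SD, n = 3 each, limma adjusted p = 0.000343), from 349 counts in the TAZ libraries and 100 in the controls. STRA6, a membrane receptor for retinol-binding protein, stood at 0.128 ± 0.0233 FPKM in the TAZ libraries and 0.0337 ± 0.0102 FPKM in the controls (adjusted p = 0.00431). HR, a corepressor of thyroid hormone and vitamin D receptors, was lower at 0.297 ± 0.0474 FPKM in the TAZ libraries, against 0.734 ± 0.138 FPKM in the controls (adjusted p = 0.00438). PER2, a clock repressor, was lower at 0.311 ± 0.0568 FPKM in the TAZ libraries, against 0.751 ± 0.0875 FPKM in the controls (adjusted p = 0.00174). All 4 passed again, in the same direction, with voom on genes that had at least 10 counts in 3 libraries, at log2 fold changes of 1.72, 1.81, -1.29 and -1.27. The voom fit used the same libraries and called 36.5% of its genes.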
